A study of Mus musculus with 100 samples.

Results

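The subunits of respiratory complexes II to V that are encoded in the nucleus were followed across 5 tables of fat RNA from mice with and without GPS2 in adipocytes. Members were protein-coding genes whose symbols begin with Sdha to Sdhd, Uqcr, Cyc1, Cox4 to Cox8 or Atp5, without the tissue isoforms Cox7a1 and Cox8b and without pseudogenes. The rule found 46 of 32153 genes: 4 of complex II, 9 of complex III, 16 of complex IV and 17 of complex V. Each gene was represented by its transcript of highest mean value.

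Complex II, or succinate dehydrogenase, passes electrons from succinate to ubiquinone, and complex III passes them on to cytochrome c. Complex IV, or cytochrome c oxidase, reduces oxygen, and complex V, the ATP synthase, uses the proton gradient built by the chain to make ATP. White fat holds fewer mitochondria than brown fat, where the chain runs uncoupled from ATP synthesis through Ucp1, and several complex IV subunits have isoforms used mainly in muscle, brown fat or testis.

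The series measured polyadenylated RNA from mouse fat and asked how loss of GPS2, a cofactor of transcriptional repressors, changes it on chow, on high fat diet and after beta-adrenergic stimulation. All samples, wild types included, carry the same strain label, Adipoq-Cre-Gps2flox/flox (a Cre driven by the adiponectin promoter, which acts in adipocytes, and floxed Gps2), and the genotype comes from sample titles alone. Chow fat (marked CD in the plots) was intra-abdominal fat at 19 weeks of age from 3 wild-type and 3 knockout replicates. Short-diet fat (HFD) was intra-abdominal fat at 11 weeks of age with 4 and 4 replicates, after 4 weeks of high fat diet by the name of its table. Long-diet fat (Epi) and long-diet adipocytes (Adipo) were intra-abdominal tissue and adipocytes at 19 weeks of age, after 12 weeks of diet by the name of their table, with 3 and 3 and with 3 and 2 replicates. Stimulated inguinal fat (BA) was taken at 8 weeks of age with 4 and 4 replicates, and its labels name no agent or dose. Chow and stimulated fat thus differ in depot and age as well as in treatment. The labels tie no replicate to an animal of its own, so the p-values speak only for the spread among the samples measured.

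Values are normalised read counts, that is reads of a transcript divided by a size factor of its library, and were scaled separately in each table, so no level was compared across tables. Summed over the chosen transcripts, a replicate held 29340643 to 63231437 reads, leaving out 3 libraries whose whole reads were not recovered. Of these reads the members took 0.854 to 1.51% in intra-abdominal fat and adipocytes and 2.4 to 3.48% in stimulated inguinal fat. Gps2 itself read 221 to 1494 over all samples, a range that spans the separate scales of the tables. Its log2 fold changes within a table were 0.01 to 0.15. Since the labels do not give the deleted exons, this transcript does not check the labels. Adipocyte markers were at 0 in no sample. By table their mean log2 level was 13.60 to 15.27 in chow, 15.14 to 15.55 in short-diet and 16.31 to 17.19 in long-diet fat. It was 16.45 to 16.90 in long-diet adipocytes and 14.26 to 15.04 in stimulated fat. Chow wild type 2, chow knockouts 1 and 2, short-diet wild type 1 and long-diet knockouts 2 and 3 stood apart from their tables in markers of epithelium or epididymis, chow wild type 1 and short-diet knockout 1 in B cell markers (7.81 and 5.90, against 3.01 to 4.73 and 2.59 to 3.80 in the rest of their tables), and stimulated wild type 2 and knockout 3 in muscle markers. Also, long-diet knockout 1 had 489 genes with 1 read against 1762 to 2016 in the other long-diet libraries.

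Promoter sequence was available for 32 of the 46 members (RefSeq, GRCm38.p6, 250 bases before to 50 after the start). Nuclear respiratory factor 1 (NRF1), ETS factors such as GABP, and estrogen-related receptors (ERR) are known activators of respiratory chain genes. The NRF1 core GCATGCGC, searched on both strands, was found in 7 of 32 member promoters (21.9%) and in 3.05% of the promoters of 27025 genes. The ETS core CCGGAAG was found in 12 (37.5%, against 9.93%), and the ERR element TCAAGGTCA in 2 (6.25%, against 0.466%). An NRF1 or ETS core, or both, was present in 14 (43.8%, against 12.4%). Shown are 170 bases ending just before the start for 1 or more promoters of each complex, chosen because they hold these cores. Capitals mark the matches on either strand, and GCGCATGCGC holds an overlapping pair of NRF1 matches.
Sdhb: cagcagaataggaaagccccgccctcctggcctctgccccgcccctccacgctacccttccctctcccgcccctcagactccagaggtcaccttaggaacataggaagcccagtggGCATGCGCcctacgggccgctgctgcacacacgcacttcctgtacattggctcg
Uqcr11: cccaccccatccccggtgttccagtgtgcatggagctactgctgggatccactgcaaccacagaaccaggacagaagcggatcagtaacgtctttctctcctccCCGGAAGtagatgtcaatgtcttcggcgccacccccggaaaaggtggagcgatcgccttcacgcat
Cox6a1: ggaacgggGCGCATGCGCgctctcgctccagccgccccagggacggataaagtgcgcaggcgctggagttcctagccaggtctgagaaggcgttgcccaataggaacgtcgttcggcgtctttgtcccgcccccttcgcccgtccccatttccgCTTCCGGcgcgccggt
Atp5g2: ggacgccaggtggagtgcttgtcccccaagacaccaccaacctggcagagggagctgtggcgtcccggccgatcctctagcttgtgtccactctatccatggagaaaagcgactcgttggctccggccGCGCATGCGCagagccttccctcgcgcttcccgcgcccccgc
Atp5g3: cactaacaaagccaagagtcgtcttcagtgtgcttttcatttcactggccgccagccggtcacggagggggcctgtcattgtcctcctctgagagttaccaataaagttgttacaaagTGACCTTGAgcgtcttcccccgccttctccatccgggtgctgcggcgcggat

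The Sdhb stretch lies at chr4:140961101-140961270 on the plus strand, with its NRF1 match starting 54 bases before the start. Those of the other genes lie on the minus strand, Uqcr11 at chr10:80406822-80406991, Cox6a1 at chr5:115348959-115349128, Atp5g2 at chr15:102671048-102671217 and Atp5g3 at chr2:73911327-73911496. The ETS match in Uqcr11 starts 66 bases before the start, the ETS match in Cox6a1 16 bases, the first NRF1 match in Atp5g2 42 bases and the ERR match in Atp5g3 52 bases. An NRF1 match in Uqcr11 that begins 4 bases before the start and an ETS match in Sdhb just after it are not wholly inside the stretches and are not capitalised. Members with an NRF1 or ETS core and members without one had median log2 fold changes of 0.41 and 0.49 in chow fat, with -0.14 and -0.12 in short-diet fat and 0.34 and 0.24 in long-diet fat. In long-diet adipocytes they were -0.16 and -0.22, and in stimulated fat -0.05 and -0.03. These matches are letters in a window and were not tested as binding sites.

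Subunits of complexes II to V were higher in the knockouts of chow fat as a group, but no single one passed the test. Of 43 members tested 42 were higher and 1 lower, with a median log2 fold change of 0.46 beside 0.11 over all genes. By limma 0 members passed an adjusted p of 0.05, where 0% of 15468 genes did (10 members and 1488 genes had an unadjusted p under 0.05; edgeR called 0 members and 0% of genes). DESeq2 called 3 members, Cox4i1, Cox7c and Uqcrh, where it called 4.52% of 19354 genes. In 15 members every knockout sample was above every wild type, and in 0 every one was below, where 12.4% and 4.54% of genes did so. Knockouts 1 and 2 were far more alike than other chow pairs of a genotype and may not count as 2 samples. With these 2 counted as 1 sample the median was 0.53 and the smallest adjusted p of a member by limma 0.968. The median was 0.31 without knockout 3, the highest sample. It was 0.71 without wild type 2 and knockouts 1 and 2, which leaves knockout 3 alone against 2 wild types, so that 1 sample is assumed to vary like the wild types.

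Short-diet fat showed no such shift. There 13 of 43 members were higher and 30 lower, with a median of -0.09, the same as over all genes. None of the members passed by limma, where 3.47% of 13946 genes did (3 members and 2899 genes had an unadjusted p under 0.05; edgeR called 0 members and 3.23% of genes). DESeq2 called 3 members, Sdha, Uqcrc2 and Atp5b, all higher, where it called 9.54% of 16046 genes. The groups did not overlap in 1 member that was higher, Sdha, and in 0 that were lower (4.03% and 10% of genes). The median was -0.20 without wild type 1 and knockout 1, and it was 0.00 without wild type 3 and 0.04 without wild type 4.

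Long-diet fat was between these, with 40 of 46 members higher and 6 lower and a median of 0.25 beside -0.03 over all genes. By limma 0 members passed, as did 0% of 17512 genes (2 members and 1612 genes had an unadjusted p under 0.05; edgeR and DESeq2 called 0 members, with 0% and 3.62% of genes). The groups did not overlap in 3 members that were higher, Cox5b, Cox7c and Atp5l, and in 0 that were lower (7.29% and 9.15% of genes). The median was 0.09 without knockout 1 and 0.43 without knockout 2.

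Long-diet adipocytes leaned the other way, with 6 of 44 members higher and 38 lower and a median of -0.18 beside -0.04 over all genes. Again 0 members passed by limma, where 0.638% of 14105 genes did (7 members and 3414 genes had an unadjusted p under 0.05; edgeR called 0 members and 1.19% of genes). DESeq2 called 1 member, Cox6a2, where it called 11.6% of 14688 genes. With 2 knockout samples, 1 member lay wholly above and 17 wholly below the wild types (20.8% and 27.3% of genes). Without knockout 2 the median was -0.05.

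Stimulated inguinal fat had 13 of 42 members higher and 29 lower, with a median of -0.05 beside 0.01 over all genes. By limma 0 members passed, where 0.0323% of 12379 genes did (2 members and 1117 genes had an unadjusted p under 0.05; edgeR and DESeq2 called 0 members, with 0.0287% and 1.74% of genes). The groups did not overlap in 0 higher members and 1 lower one, Cox6b2 (3.27% and 2.21% of genes). The median was 0.08 without knockout 3, 0.01 without wild type 3 and -0.15 without knockout 1.

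The samples themselves show what lay behind these medians. Relative to the wild-type mean of the table, the median log2 level of the 42 members tested in all 5 tables was -0.11, -0.23 and 0.34 in the chow wild types and 0.29, 0.31 and 0.81 in the knockouts. Chow knockout 3 was highest and wild type 3 lay among the knockouts. The mean log2 level of 14 adipocyte markers was 14.80, 13.60 and 15.13 in the chow wild types and 14.72, 14.73 and 15.27 in the knockouts. Knockout 3 was highest and wild type 2 lowest in both measures, while wild type 1 lay above knockouts 1 and 2 in the markers and below them in the members. Summed, those markers were 324917 to 960741 in the wild types and 836709 to 1231660.0 in the knockouts, and their part in the members' difference was not tested. In short-diet fat the level was -0.44, -0.16, 0.27 and 0.32 in the wild types and -0.20, 0.01, 0.01 and -0.10 in the knockouts. Here the wild types spread around the knockouts on both sides, with adipocyte markers at 15.14, 15.25, 15.42 and 15.45 in the wild types and 15.32, 15.50, 15.55 and 15.46 in the knockouts. Knockouts 2, 3 and 4 lay above every wild type in those markers and below wild types 3 and 4 in the members.

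Long-diet fat read -0.02, 0.16 and -0.14 in the wild types and 0.67, -0.07 and 0.26 in the knockouts. Knockout 1 was highest in members and in adipocyte markers (17.19), and knockout 2, low in both (-0.07 and 16.43), had the highest mean level of 11 epididymis and testis markers (12.39, against 0.30 to 1.19 in the wild types, where 5 of the 11 were at 0 in all 3). Knockout 3 was also high in those markers (10.68), with its members above every wild type. Their part in the result was not tested. Long-diet adipocytes read -0.03, 0.10 and -0.07 in the wild types and -0.04 and -0.27 in the knockouts, whose endothelial marker levels, 11.43 and 10.41, lay above the 7.47 to 8.54 of the wild types. The summed endothelial markers were 14901 to 33475 in the knockouts and 2004 to 3906 in the wild types. Of the markers tested there, 8 of 8 endothelial, 6 of 6 mesothelial and 12 of 13 macrophage markers had positive log2 fold changes. Mesothelial levels were 4.21 to 6.13 in the wild types and 6.82 to 7.46 in the knockouts. Macrophage levels overlapped, at 7.25, 6.96 and 9.97 in the wild types and 9.54 and 8.38 in the knockouts, with wild type 3 highest. The part of these markers in the members' values was not tested. In such bulk RNA, fewer cells of a type and less RNA per cell cannot be told apart. Stimulated fat read -0.29, 0.04, 0.12 and 0.14 in the wild types and 0.22, -0.06, -0.49 and 0.09 in the knockouts, so that 1 sample of each genotype was low. These, wild type 1 and knockout 3, had the lowest brown and beige marker levels of the table (8.16 and 7.96, against 8.86 to 10.82 in the others). Adipocyte markers were at 14.26 to 14.52 in the wild types and 14.66 to 15.04 in the knockouts, and the part of either list in the members' values was not tested.

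**Figure D1:**
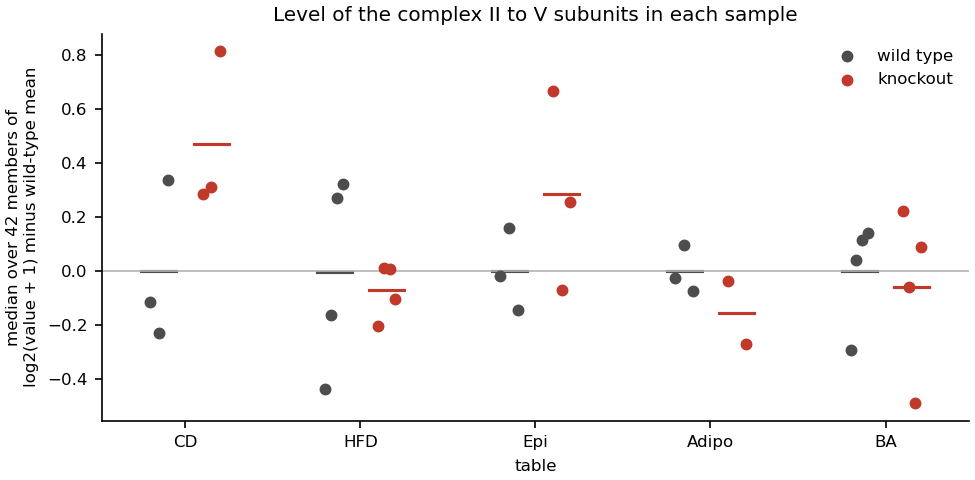
Median log2 level of the 42 subunit genes tested in all 5 tables, relative to the wild-type mean of the table (y axis), for every sample, by table and genotype (x axis). Chow knockouts lie at 0.29, 0.31 and 0.81, while wild types and knockouts overlap in each table.

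The genotype effects were then compared between tables with an interaction term. The members' effect in short-diet fat minus that in chow fat had a median of -0.51 beside -0.18 over all genes, with 2 members above 0 and 41 below. By limma 0 of 43 members passed, as did 0% of 13749 genes (smallest adjusted p of a member 0.185). Cox4i1 (-1.03 ± 0.32 SE, adjusted p = 0.185), Cox7c (-1.03 ± 0.31, adjusted p = 0.185) and Cox7a2l (-0.80 ± 0.28, adjusted p = 0.200) had the smallest p. In the other complexes the largest differences were those of Sdhc (-0.51), Uqcrh (-0.93) and Atp5k (-0.78).

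Between long-diet and chow fat the median difference was -0.16 (all genes -0.10), with 8 members above 0 and 35 below, and 0 passed by limma, as did 0% of 15059 genes. With TMM scaling the split was 20 and 23 and the median -0.03, and without long-diet knockout 2 the median was 0.01. Atp5s (-0.74), Cox7a2l (-0.44) and Cox4i1 (-0.69) had the smallest p, with adjusted p of 0.569 or more. The largest of each complex were Sdhd (-0.46), Uqcrb (-0.54), Cox4i2 (-0.75) and Atp5l (0.75). Between long-diet and short-diet fat it was 0.31 (all genes 0.08), with 39 above and 4 below, and 0 passed by limma, as did 0% of 13942 genes. Atp5g1 (0.61, adjusted p = 0.190), Cox5b (0.79) and Cox8a (0.83) had the smallest p, and Sdhc (0.31), Uqcr11 (0.70) and Atp5l (1.28) were the largest of their complexes. These comparisons share the samples of the table they have in common.

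Between long-diet adipocytes and long-diet fat the median difference was -0.48 (all genes -0.05), with 2 of 44 members above 0 and 42 below. By limma 0 members passed, where 1.67% of 14033 genes did. Atp5g1 (-0.82 ± 0.27 SE, adjusted p = 0.206) had the smallest p. Samples of both tables that share the label's genotype and number deviated together, though their correlations overlap those of other pairs. With genotype and number as a block Atp5g1 passed at -0.94 (adjusted p = 0.0495 by limma), the 1 member among the 1.64% of genes called by that fit. Cox6a2 (-3.74), Atp5e (-0.69), Atp5l (-0.83), Sdhc (-0.45) and Uqcrq (-0.75) had the next smallest p or were the largest of their complexes. Between stimulated and short-diet fat it was 0.04 (all genes 0.10), with 24 above and 18 below, and 0 of 42 passed by limma, where 0.381% of 12080 genes did. This sign did not hold. The split was 13 and 29 and the median -0.07 with TMM scaling, and with 1 replicate left out the median ranged from -0.09 (short-diet wild type 4) to 0.20 (short-diet wild type 1). Atp5g1 (0.97, adjusted p = 0.263), Uqcrc2 (-0.60), Sdha (-0.42) and Cox4i2 (0.37) had the smallest p or the largest differences there.

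**Figure D2:**
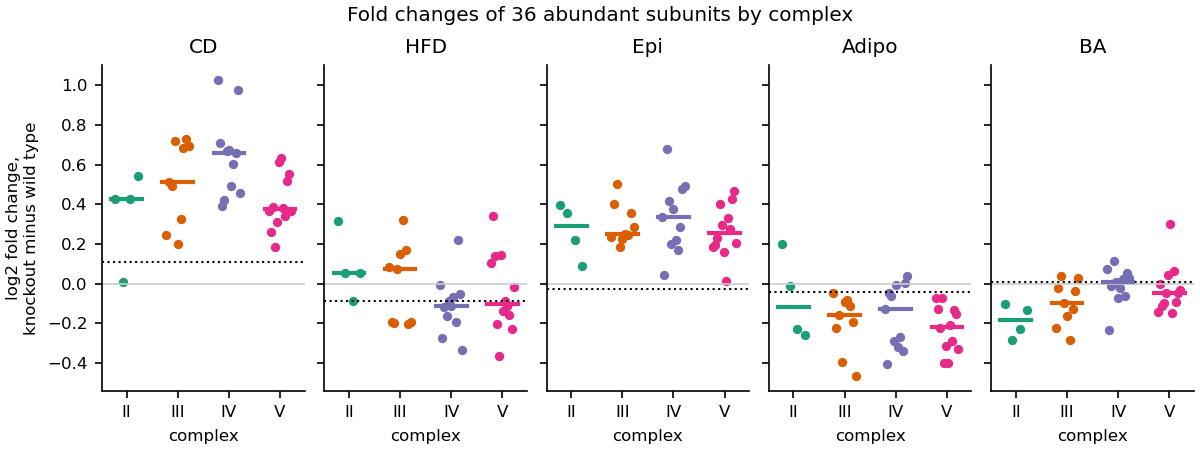
Log2 fold change, knockout against wild type (y axis), by complex and table (x axis), of the 36 subunit genes with a mean of 1000 or more in all 5 tables. Bars mark the median of these genes in each complex. Over all 36 the median was 0.49 in chow fat and -0.09 in short-diet fat.

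By complex, over all members tested, the chow medians were 0.43 for complex II, 0.51 for III, 0.62 for IV and 0.38 for V. That of 38 complex I subunits was 0.46. In short-diet fat they were 0.05, 0.07, -0.12 and -0.11, with complex I at -0.14. Long-diet fat had 0.29, 0.25, 0.21 and 0.27, and complex I 0.32. Long-diet adipocytes had -0.12, -0.16, -0.10 and -0.23, and complex I -0.15, while stimulated fat had -0.18, -0.10, 0.01 and -0.05, and complex I -0.12.

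Complex II has 4 subunits. Sdha is the flavoprotein that oxidises succinate, Sdhb carries the iron-sulfur clusters, and Sdhc and Sdhd anchor them in the inner membrane. All 4 were higher in the chow knockouts (0.01 to 0.54), all 4 in the long-diet knockouts (0.09 to 0.39) and 0 of 4 in the stimulated knockouts (-0.29 to -0.10).

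In chow fat Sdha read 5673, 4979 and 6679.8 in the wild types and 6809.8, 6665 and 10117 in the knockouts. The groups overlapped, since knockout 2 lay just below wild type 3. Short-diet Sdha read 6632, 7946, 8981 and 7664 in the wild types and 9665, 9648, 9957 and 9318 in the knockouts. All 4 knockouts lay above all 4 wild types, by a log2 fold change of 0.31 ± 0.11 SE (limma adjusted p = 0.161). Long-diet tissue gave 22647, 29937 and 19471 against 37881, 25431 and 31127, a log2 fold change of 0.39 ± 0.23 (limma adjusted p = 0.631). Knockout 1 was highest there, and knockout 2 lay below wild type 2. Long-diet adipocytes gave 26258, 25980.4 and 19132 against 28509 and 25671, and stimulated fat 18973, 21771, 24667 and 28643 against 23978, 24145, 18324 and 20656. The groups overlapped in both.

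Sdhb read 2236, 1832 and 3189 in the chow wild types and 1926, 2048 and 3380.4 in the knockouts, overlapping widely. Its short-diet values were 2315, 2951, 4049 and 3704 against 2956, 3469.6, 3715 and 3119, and its long-diet tissue values 6653, 7434 and 5679.5 against 10507, 6203 and 9063. Wild type 1 was lowest in short-diet fat, and knockout 1 was highest in long-diet fat. In long-diet adipocytes Sdhb read 6688, 7431 and 5538 against 6837 and 6098. In stimulated fat it read 7670.2, 10197, 11854 and 12307 against 10623, 8835, 6166 and 8888, a log2 fold change of -0.29 ± 0.22 SE (limma adjusted p = 0.786). Knockout 3 was the lowest sample there and the groups overlapped.

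Sdhd read 2147, 1679 and 2839.7 in the chow wild types and 2816, 2742 and 4105 in the knockouts, a log2 fold change of 0.54 ± 0.26 SE (limma adjusted p = 0.539). Only wild type 3 lay above the lower 2 knockouts. In long-diet adipocytes Sdhd read 7425, 8182 and 7313 against 6976 and 5831, -0.26 ± 0.15 (limma adjusted p = 0.336), with both knockouts below the wild types.

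Complex III has 9 members here. Cyc1 is cytochrome c1 and Uqcrfs1 the Rieske iron-sulfur protein, the nuclear-encoded subunits that carry electrons, Uqcrc1 and Uqcrc2 are the core proteins, Uqcrh is the hinge protein, and Uqcrb, Uqcrq, Uqcr10 and Uqcr11 are small subunits. All 9 were higher in chow knockouts (0.20 to 0.73) and in long-diet knockouts (0.18 to 0.50), and 0 of 9 were higher in adipocyte knockouts (-0.47 to -0.05). Short-diet fat had 5 higher and 4 lower, and stimulated fat 2 and 7.

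Cyc1 read 2448, 2112 and 3429 in the chow wild types and 2575, 2651 and 4311 in the knockouts. It read 3095, 3910.0, 5050.5 and 4329 against 3609, 4679, 4781 and 4103 in short-diet fat and 9016, 10166 and 7387 against 13084, 7764 and 10841 in long-diet fat. Wild types and knockouts overlapped in all of these tables. Adipocytes gave 8609.5, 9834 and 7428 against 8977 and 7636, and stimulated fat 9128, 12043, 14758 and 15585 against 12562, 11258, 8124 and 11739. Stimulated wild type 1 and knockout 3 were the lowest samples.

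Uqcrfs1 read 1870.2, 1979 and 2670.1 in the chow wild types and 2949, 2971 and 4657 in the knockouts, which all lay above. It read 2082, 2953, 3652 and 3485 against 3167, 3414, 3606 and 3198 in short-diet fat and 6813, 8511 and 5924 against 10629, 6319 and 8496 in long-diet fat. Both pairs of groups overlapped. In adipocytes it read 7343, 7586 and 6489 against 7371 and 5868, and in stimulated fat 6799, 7867, 14212 and 15189.8 against 15945, 8868, 6313 and 9031. Wild types 3 and 4 and knockout 1 stood high in stimulated fat.

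Uqcrh read 3152, 2914 and 4029 in the chow wild types and 4862, 5032 and 6905 in the knockouts. All knockouts were above all wild types, by 0.73 ± 0.22 SE (limma adjusted p = 0.505). Uqcrc2 read 2778, 3360.0, 3958 and 3085 in the short-diet wild types and 3874, 4040.2, 4472 and 3982 in the knockouts, 0.32 ± 0.12 (limma adjusted p = 0.176). Knockout 1 alone lay below the highest wild type. In stimulated fat Uqcrc2 read 10153, 11505, 16566 and 17726 against 13393, 12109, 9708 and 9955, -0.28 ± 0.22 (limma adjusted p = 0.794), where wild types 3 and 4 were highest.

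Uqcr11 read 6495, 5689 and 5107 in the long-diet wild types and 12249, 5699 and 7648 in the knockouts. Knockout 1 was far above the other samples and knockout 2 lay among the wild types, with a log2 fold change of 0.50 ± 0.28 SE (limma adjusted p = 0.623). Uqcrq read 7599, 8366 and 7569 in the adipocyte wild types and 5974 and 5384 in the knockouts. Both knockouts lay below all wild types, by a log2 fold change of -0.47 ± 0.14 (limma adjusted p = 0.135). Uqcrb, Uqcrc1 and Uqcr10 had log2 fold changes of 0.72, 0.20 and 0.51 in chow fat.

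Complex IV has 16 members here. Cox4i1 is the common form of subunit 4, with which ATP regulates the enzyme, and Cox4i2 is its hypoxia-induced form. Cox5a, Cox5b, Cox6b1, Cox6c, Cox7b and Cox7c are single or common forms, Cox6a1 and Cox8a the liver or common forms, and Cox7a2 the liver form of subunit 7a. Cox7a2l is best known for linking complexes III and IV in supercomplexes. Cox6a2 is the heart and muscle form, and Cox6b2, Cox7b2 and Cox8c are testis forms. Cox6a2, Cox7b2 and Cox8c were under the mean of 10 required for testing in chow and short-diet fat. Cox6a2 and Cox8c were also under it in stimulated fat. Cox7b2 in adipocytes and stimulated fat, Cox8c in adipocytes, and the complex V gene Atp5mpl in stimulated fat were not analysed here. In chow fat 12 of 13 were higher, in short-diet fat 1 of 13, in long-diet fat 11 of 16, in adipocytes 4 of 14 and in stimulated fat 7 of 13.

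Cox4i1 had the largest chow difference of all members and the smallest p. Its values were 8300.5, 7089 and 10532 in the wild types and 16996, 17372 and 17728 in the knockouts. The 3 knockouts lay close together and far above the wild types, with a log2 fold change of 1.03 ± 0.22 SE (p = 0.00301, limma adjusted p = 0.505). A part of the transcript, 20.1%, lies under an exon of Emc8 on the opposite strand. In short-diet fat Cox4i1 read 7747, 9254, 13212 and 15333 against 9909.6, 11769, 11961 and 10197, with the knockouts inside the wild-type range. Long-diet fat gave 25648, 22159 and 18267 against 36671, 21830.3 and 26014, adipocytes 23736, 25540.2 and 20482 against 24109 and 18614. Stimulated fat gave 22429, 28799, 26145 and 26672 against 32064, 28186, 19010.3 and 32095. The groups overlapped in these 3 tables.

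Cox7c read 940.2, 869 and 1288 in the chow wild types and 1783, 1860.0 and 2417 in the knockouts. The lowest knockout lay above the highest wild type, and the log2 fold change was 0.98 ± 0.21 SE (p = 0.00344, limma adjusted p = 0.505). Cox7a2l read 1036, 1115 and 1183 against 1831, 1857 and 1410.5 there, 0.60 ± 0.16 (limma adjusted p = 0.505). Its groups were also apart, with knockout 3, the highest sample for most members, the lowest of the knockouts. Chow Cox6b1, Cox6c, Cox7a2 and Cox7b had log2 fold changes of 0.67, 0.67, 0.49 and 0.66, and Cox6a1 0.42.

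Cox5a read 1520.0, 1341 and 2230.5 in the chow wild types and 2298, 2238 and 3874 in the knockouts, which lay just above. Short-diet values were 1474, 2022, 2948 and 2904 against 1627, 1988, 2049.9 and 1799, and long-diet tissue values 4749.8, 5566 and 4612 against 5749, 4124 and 5630.1. The groups overlapped in both. In adipocytes Cox5a read 4231, 4411 and 4936 against 3668 and 3173, -0.40 ± 0.14 SE (limma adjusted p = 0.168), with both knockouts below. Stimulated fat gave 5710.3, 7826, 9393 and 10353 against 9159, 7099, 4352 and 7972, where knockout 3 was lowest. In Cox5a 41.7% of the transcript lies under exons on the opposite strand.

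Cox8a read 7491, 8283, 12104 and 13566 in the short-diet wild types and 7098, 9432, 7706 and 7845 in the knockouts, -0.33 ± 0.20 SE (limma adjusted p = 0.358). Wild types 3 and 4 stood above all other samples. In long-diet fat Cox8a read 14302, 14406 and 10461 against 23352, 13669 and 18854, 0.49 ± 0.24 (limma adjusted p = 0.575), and knockout 2 lay among the wild types. Cox5b read 3076, 3720.5 and 2987 in the long-diet wild types and 7259, 3873 and 4972 in the knockouts. Knockouts were above all wild types by 0.68 ± 0.23 (limma adjusted p = 0.487), the smallest p of a member in that table.

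**Figure D3:**
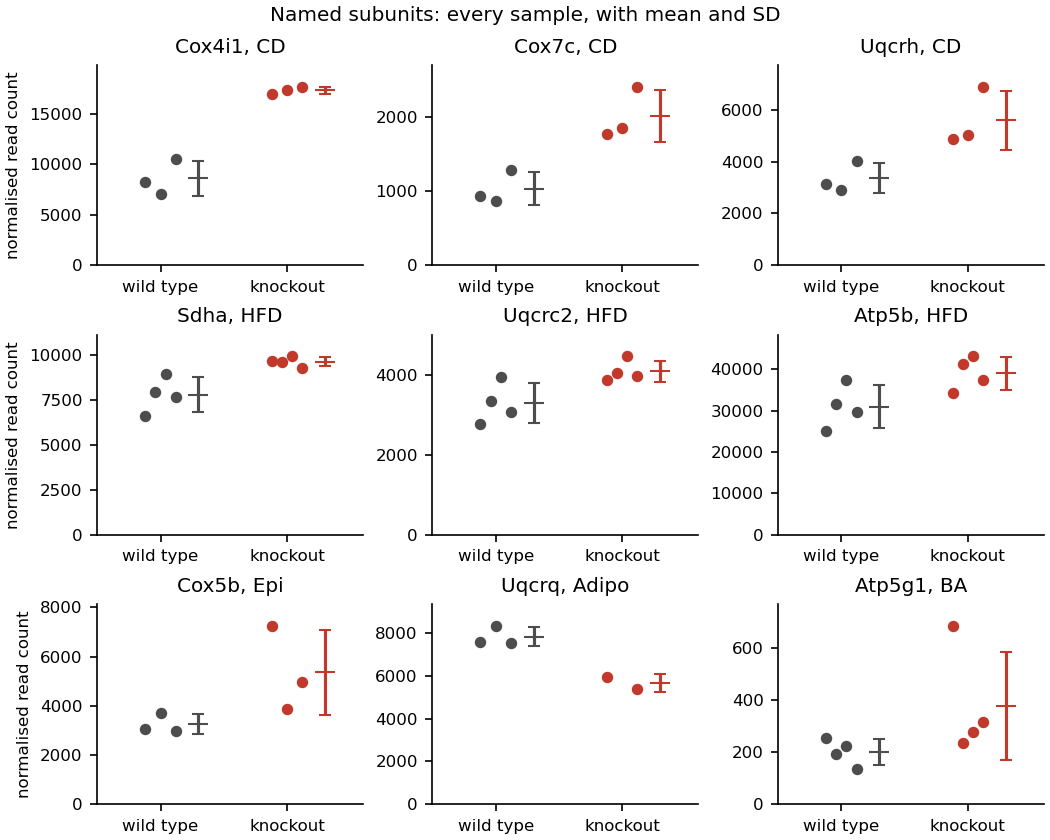
Normalised read count (y axis) of 9 named subunit genes in every sample of a table, by genotype (x axis), with mean and SD. Knockout points for Cox4i1 in chow fat (16996, 17372 and 17728) lie above its wild types, while those for Atp5g1 in stimulated fat spread from 237 to 687.

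The tissue forms of complex IV were high in single libraries. Cox8c, a testis form, read 708, 0 and 0 in the long-diet wild types and 0, 60.9 and 2.57 in the knockouts. Cox7b2 read 267, 0 and 0 against 0, 17.3 and 1.72, -0.81 ± 2.59 SE (limma adjusted p = 0.939), and Cox6b2 562, 48 and 77.5 against 50.4, 175 and 48.9. Wild type 1 was highest for all 3, and knockout 2, the library with the highest epididymis and testis marker level (12.39), was next. Knockout 3, with a marker level of 10.68, read near 0 for Cox8c and Cox7b2. Wild type 1 itself had a level of 1.19 for those markers, which come mainly from epididymis. In chow fat Cox8c read 0.721, 0.223 and 0 against 11.1, 20.1 and 0 and Cox7b2 0, 0.188 and 0 against 5.3, 5.09 and 0. Knockouts 1 and 2 were the highest for both and also for the epididymis and testis markers (5.05 and 4.98, against 0.41 to 2.60 in the wild types and 0.76 in knockout 3).

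Cox6b2 in adipocytes read 10.1, 8.35 and 7.16 in the wild types and 32.7 and 19.5 in the knockouts, both of which lay above. In stimulated fat it read 35.7, 35, 38.6 and 53.2 against 32.4, 28.2, 20.7 and 31.6, -0.51 ± 0.21 SE (limma adjusted p = 0.495). There all 4 knockouts lay below all 4 wild types.

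Cox6a2, the muscle form, read 11.2, 11.5 and 39.9 in the adipocyte wild types and was listed at 0 in both knockouts. The fitted log2 value of -4.20 (p = 0.00245, limma adjusted p = 0.0847) depends on the pseudocount of 1 and is no measure of fold. With the filter on low values left out it passed by limma, as did 1.64% of 23256 genes. Wild type 3, the highest, also had the highest skeletal muscle marker level in that table (3.73, against 1.90 to 2.84 in the other 4 samples), but the lowest sum of those markers among the wild types (2888, against 3108 and 5556). Long-diet tissue read 9.21, 8.28 and 52.9 against 26.5, 9.05 and 6.0, and its wild type 3 was likewise highest in Cox6a2 and in muscle marker level (4.98), with a summed level of 2152 that was below those of wild type 2 (2611) and knockout 3 (2749). In stimulated fat Cox6a2 read 1.88, 12.1, 1.58 and 1.74 against 7.76, 3.65, 10.6 and 4.12. Wild type 2 and knockout 3, its highest samples, had muscle levels of 7.41 and 7.74 where the other samples had 1.6 to 3.75. Chow fat read 1.17, 0.996 and 1.39 against 0, 0 and 0.900, and short-diet fat 2.12, 1.56, 0.267 and 3.21 against 1.29, 2.48, 2.12 and 2.59, all at 3.21 or less. The part of muscle RNA in these values was not tested.

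Cox4i2 was a small part of subunit 4 everywhere. It read 129, 49.9 and 172 in the chow wild types and 117, 138 and 247 in the knockouts, and 82.1, 104, 153 and 212 against 109, 91.4, 109 and 119.8 in short-diet fat. Long-diet fat gave 292, 229 and 370.0 against 227, 226 and 364, and adipocytes 28.1, 9.39 and 40.9 against 116 and 40.8. Groups overlapped in each, adipocytes by a narrow margin. Adipocyte knockout 1, the highest there, also had the highest endothelial marker level (11.43). Stimulated fat gave 73.5, 79, 64.4 and 58.5 against 87, 71.6, 61.3 and 77.

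The excluded forms Cox7a1 and Cox8b, which belong to muscle and brown fat, had negative log2 fold changes in all 5 tables. That of Cox8b turned to 0.10 in long-diet fat with a replicate left out, and to 0.63 in chow fat with knockout 3 alone against wild types 1 and 3. Cox7a1 read 64, 127, 168 and 215 in the short-diet wild types and 33.8, 51.2, 51.5 and 38.3 in the knockouts. It fell by 1.59 ± 0.34 SE on the log2 scale (limma adjusted p = 0.0364), with no overlap, a call that 7 of the 8 fits leaving out 1 replicate did not keep. The liver form Cox7a2 had a log2 fold change of -0.07 in that table. In chow fat Cox7a1 read 34, 72.9 and 57.1 against 20.3, 22.2 and 24.6, and in adipocytes 274, 276 and 321 against 93 and 131. The groups did not overlap in either, at -1.19 (limma adjusted p = 0.505) and -1.38 (limma adjusted p = 0.0708). Long-diet fat gave 232, 210.4 and 296 against 209, 179 and 148, -0.46. Stimulated fat gave 2265, 4149, 4677 and 5579 against 2242, 2780.3, 1261 and 3490.5, -0.79 (limma adjusted p = 0.539).

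Stimulated Cox7a1 stood beside the mean log2 level of 8 brown and beige markers, 8.16, 8.86, 10.13 and 10.82 in the wild types and 9.47, 9.15, 7.96 and 9.26 in the knockouts. Knockout 3 was lowest in both. Cox8b read 129, 297, 430.2 and 581 in the short-diet wild types and 105, 77.2, 142 and 122 in the knockouts, -1.52 ± 0.41 SE (limma adjusted p = 0.0787). Wild type 1 lay among the knockouts. Its log2 fold changes were -0.61 in chow fat, -0.09 in long-diet fat, -1.69 in adipocytes and -0.47 in stimulated fat, with adjusted p of 0.206 or more by limma.

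**Figure D4:**
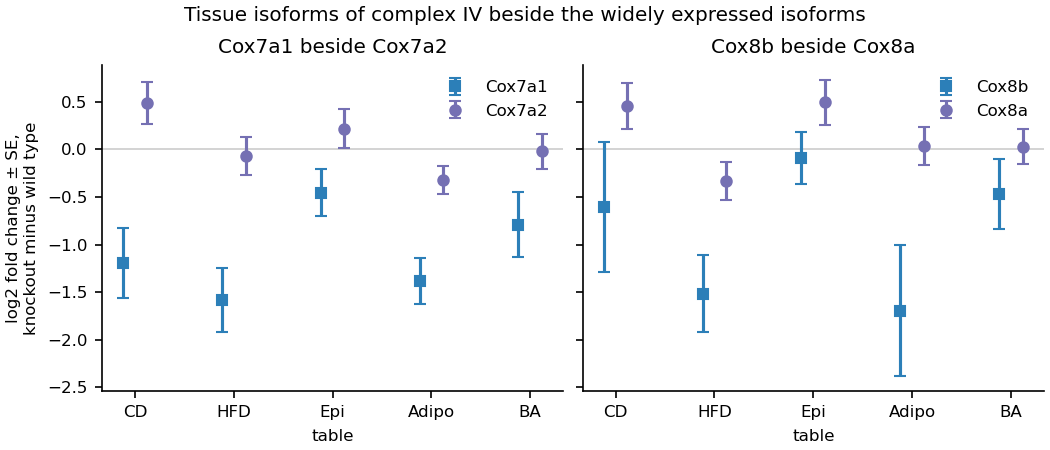
Log2 fold change, knockout against wild type, with its SE (y axis) for Cox7a1 beside Cox7a2 and for Cox8b beside Cox8a in the 5 tables (x axis). Cox7a1 lies at -1.59 in short-diet fat, where Cox7a2 lies at -0.07.

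Complex V has 17 members. Atp5a1, Atp5b, Atp5c1, Atp5d and Atp5e form the catalytic head and central stalk. Atp5g1, Atp5g2 and Atp5g3 encode the same mature c subunit of the rotor ring. Atp5f1, Atp5h, Atp5j and Atp5o belong to the peripheral stalk, Atp5j2, Atp5k, Atp5l and Atp5mpl are small membrane subunits, and Atp5s is coupling factor B. All 17 were higher in chow knockouts (0.18 to 0.66), 4 of 17 in short-diet, 16 of 17 in long-diet, 1 of 17 in adipocyte and 4 of 16 in stimulated knockouts.

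Atp5a1 read 9224, 9788 and 11532 in the chow wild types and 11624, 11516 and 16714 in the knockouts. It read 13579, 16428, 18826 and 17648 against 16374, 18817, 19119.9 and 16681 in short-diet fat and 43737, 52340.0 and 42581 against 63944, 43624 and 51326 in long-diet fat. Groups overlapped in all of these. Adipocytes gave 43849, 46085 and 41265 against 44999 and 38307, and stimulated fat 30166, 34288, 48095 and 54601 against 46134, 37804, 29758 and 35384, where wild types 3 and 4 were highest.

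Atp5b carries the catalytic sites. In short-diet fat it read 25179, 31676, 37519.6 and 29646 in the wild types and 34277, 41357, 43187 and 37422 in the knockouts. Wild type 3 alone overlapped the knockouts, and the log2 fold change was 0.34 ± 0.15 SE (limma adjusted p = 0.229). Chow fat gave 18325, 16746 and 23198 against 19747, 20089 and 30721, and long-diet fat 88424, 104353 and 74608 against 131775, 79225 and 98543. Knockout 3 was highest in chow fat and knockout 1 in long-diet fat. Adipocytes gave 101769, 108075 and 82175 against 97615 and 80363. Stimulated fat gave 57165, 74178, 76778 and 85053 against 84657, 76466, 61165 and 69049.9, with a log2 fold change of -0.00 on overlapping groups. Per kb of transcript Atp5b ranked first among members in long-diet fat, adipocytes and stimulated fat, and Cox8a in chow and short-diet fat.

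Atp5e encodes the smallest subunit of the central stalk. In short-diet fat it read 2183, 2480.4, 3929 and 5566 in the wild types and 2233, 2969.8, 2615 and 2463 in the knockouts, -0.37 ± 0.27 SE (limma adjusted p = 0.447). Wild types 3 and 4 stood above the rest. Atp5mpl read 960.1, 943 and 1407 in the chow wild types and 1441, 1526 and 2296 in the knockouts, 0.66 ± 0.25 (limma adjusted p = 0.517), with the knockouts above. In adipocytes it read 2786, 2822 and 3159.8 against 2494 and 1942, -0.41 ± 0.16 (limma adjusted p = 0.188), with the knockouts below.

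Atp5l was represented by a transcript of few reads. In long-diet fat it read 10.7, 22.4 and 13.2 in the wild types and 50.4, 29.6 and 25.7 in the knockouts, 1.14 ± 0.61 SE (limma adjusted p = 0.609). All knockouts lay above, knockout 1 farthest. The peripheral stalk genes Atp5f1, Atp5h, Atp5j and Atp5o had log2 fold changes of 0.61, 0.38, 0.34 and 0.37 in chow fat and of -0.32, -0.21, -0.29 and -0.33 in adipocytes. Among the others, Atp5c1, Atp5d, Atp5j2, Atp5k and Atp5s had 0.39, 0.18, 0.52, 0.55 and 0.42 in chow fat.

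Of the c subunit genes, Atp5g1 had the smallest p of a member in stimulated fat. It read 253, 193, 225 and 136 in the wild types and 687, 237, 276 and 316 in the knockouts, 0.81 ± 0.32 SE (p = 0.0283, limma adjusted p = 0.479). Knockout 1 was far highest and knockout 2 lay below the highest wild type. Without knockout 1 the log2 fold change was 0.48. Long-diet fat gave 1015, 1092 and 1349 against 1896, 1524 and 1329.7, 0.45 ± 0.18 (limma adjusted p = 0.524), with wild type 3 above knockout 3. Chow fat gave 432, 1054 and 512 against 734, 755 and 632, where wild type 2, high in epithelial markers (9.49), was highest. Short-diet fat gave 516, 455, 558 and 648 against 438, 500.3, 515 and 485, and adipocytes 951, 1172 and 1219.7 against 985 and 750.3, all overlapping.

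Atp5g3 read 6821, 5827, 6970.2 and 5289.7 in the stimulated wild types and 10918, 6561, 6582 and 7099.6 in the knockouts, 0.30 ± 0.20 SE (limma adjusted p = 0.743), with knockout 1 apart from the others. In chow fat it read 4048, 3561 and 5630.3 against 5761, 5538 and 9458, and in short-diet fat 4853, 6352, 7668 and 7646 against 5568, 5527, 6711 and 5929. Overlap was seen in each. Long-diet fat gave 15054, 20076 and 14848 against 20266, 13045 and 17416, and adipocytes 14635, 15618 and 17387 against 13352 and 10749.5, where both knockouts were lowest. Atp5g2 read 227, 243 and 311 against 333, 317 and 344 in chow fat and 276, 303, 382 and 372 against 295, 329, 309 and 272 in short-diet fat. Its chow knockouts lay just above the wild types. Long-diet fat gave 791, 618 and 564 against 952, 733 and 738, adipocytes 679, 693 and 634 against 623 and 571, and stimulated fat 341, 412, 410.1 and 362 against 424, 372, 302 and 370.3.

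Shares between isoforms do not depend on the scaling of a library. Per kb of transcript, Atp5g3 made up 91.6 to 94.7% of the 3 c subunit genes in the group means of the 5 tables. Cox4i2 made up 1.34 ± 0.527% of subunit 4 in chow wild types and 1.00 ± 0.391% in knockouts (SD over 3 and 3 samples; p = 0.3 by exact permutation). In adipocytes it made up 0.124 ± 0.0856% and 0.366 ± 0.192% (SD over 3 and 2 samples; p = 0.1 by exact permutation, the smallest possible there). The smallest p of 25 shares was that of Atp5g1 in stimulated fat, 0.452 ± 0.0701% in wild types and 0.662 ± 0.170% in knockouts (SD over 4 and 4 samples; p = 0.0571 by a two-sided exact permutation test, adjusted p = 0.556). None of the 25 passed after Benjamini-Hochberg adjustment, and with 3 against 3 no exact p can go below 0.1. Even with 4 against 4 no share could pass that adjustment over 25 tests. This outcome was therefore fixed in advance and does not show that the shares were unchanged. The chosen Atp5g1 transcript has 4715 bases and held 25.46% of the value over 4 transcripts. That of Atp5g3 has 714 bases and held 50% over 2. Division by the longer length lowers the Atp5g1 share. With all transcripts of a gene summed, Atp5g3 was 76.1 to 86.3% and Atp5g1 3.4 to 14.6% of the c subunit. These shares thus depend on the transcripts counted and do not settle the composition of the c subunit.

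In short-diet fat the direction of the difference went with the length of the chosen transcript. Of 36 members with a mean of 1000 or more in all 5 tables, 16 have a transcript of 1000 bases or longer and 20 a shorter one. Of the long ones 12 were higher in short-diet knockouts (median 0.12), and of the short ones 19 were lower (median -0.13). Over these members log2 fold change and log2 length had Pearson's r = 0.68 and Spearman's rho = 0.69, a description across genes that share libraries. Over all 2483 genes of that level r was 0.20, with medians of -0.10 for long and -0.24 for short ones. The same r over members was -0.32 in chow fat, -0.32 in long-diet fat, 0.26 in adipocytes and -0.41 in stimulated fat. In some members the chosen transcript held only a part of the gene's value, so that their length rests on that choice. Among the long ones were Uqcrq (1521 bases, 39.35% over 3 transcripts), Atp5d (1410 bases, 33.76% over 3) and Atp5c1 (1735 bases, 20.47% over 7). Among the short ones was Cox4i1 (765 bases, 34.88% over 3), and Cox7b counted as long at 1001 bases. RNA quality and GC content were not measured here, and their part was not tested.

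**Figure D5:**
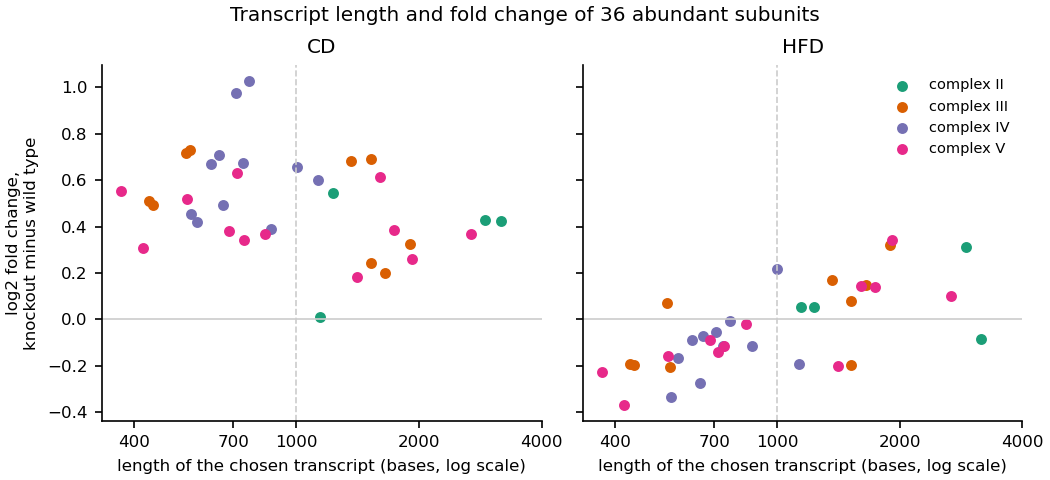
Log2 fold change, knockout against wild type (y axis), against the length of the chosen transcript in bases on a log axis (x axis) for 36 subunit genes in chow and short-diet fat. Short transcripts lie mostly below 0 and long ones mostly above 0 in short-diet fat (r = 0.68), and all lie above 0 in chow fat.

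Genes that work with the complexes were looked at beside them. Cycs, or cytochrome c, read 396, 384 and 585 in the chow wild types and 799, 743 and 918 in the knockouts, 0.87 ± 0.20 SE (limma adjusted p = 0.505), with the knockouts above. Its log2 fold changes were 0.12, 0.08, -0.38 and 0.06 in short-diet fat, long-diet fat, adipocytes and stimulated fat. Atpif1, the inhibitor of the ATP synthase, read 651, 1804 and 581 against 1694, 1786 and 679.8 in chow fat, 0.53 ± 0.57. Wild type 2 and knockouts 1 and 2, the libraries with high epithelial markers, were its highest samples. In the other tables it had -0.17, 0.16, -0.36 and 0.49.

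Of 37 assembly factors of complexes II to V 0 passed by limma in any table. They were higher and lower in 31 and 6 in chow fat (median 0.26), 10 and 27 in short-diet fat (-0.12), 29 and 8 in long-diet fat (0.18), 3 and 34 in adipocytes (-0.28) and 7 and 29 in stimulated fat (-0.14). In chow fat the membrane insertion factor Cox18 (0.92) and Cox14 (0.68), both for complex IV, had the smallest p, with an adjusted p of 0.505 by limma. Lrpprc, which stabilises mitochondrial mRNAs, had 0.40 in short-diet fat (limma adjusted p = 0.0733), where Coa6 had -0.27. Long-diet fat had Fmc1 at 0.65 and Uqcc3 at 0.70. Adipocytes had Cox16 at -0.62 (limma adjusted p = 0.0824) and Coa5 at -0.57. Stimulated fat had Bcs1l, which inserts the Rieske protein, at -0.37 and Cmc1 at -0.24.

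In 9 members, 9.35 to 41.7% of the transcript lies under exons of a gene on the opposite strand, namely Uqcrb, Uqcrc2, Cox4i1, Cox5a, Cox6a2, Atp5f1, Atp5j, Atp5l and Atp5o. The libraries were stranded by the labels, but how strand entered the counting was not recorded in the labels. For these genes, reads of the partner cannot be told apart.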

How the data were processed

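RNA of fat tissue and adipocytes was measured by stranded polyadenylated RNA sequencing. The authors deposited 5 tables of signal values per Ensembl transcript, which are reads divided by a size factor of the library. Per the submitters' processing notes bcl2fastq 2.17, STAR 2.4.0k, SAMtools, HTSeq 0.5.3, DESeq 1.8.3 and build GRCm38.p4 were used. Of the columns 99 were used and 1, which no label matched, was not. The 4 libraries of a replicate in the chow, short-diet and stimulated tables differed by little more than sampling noise (chi-square per degree of freedom 1.038 to 1.096) and were averaged. Between replicates it was 6.795 for chow knockouts 1 and 2, which are thus far more alike than other chow pairs of a genotype (187.8 to 1001), and 18.84 or more in the other tables. With these 2 knockouts counted as 1 sample the chow median of the members was 0.53, and 0 members passed (smallest adjusted p of a member by limma 0.968, against 0.505).

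Genes were tested per table with limma 3.58.1 (R 4.3.3; trend and robust moderation) on log2(value + 1), for genes with a mean of 10 or more, with Benjamini-Hochberg adjustment over all of them at 0.05. A fold change is on that scale, which understates changes of low genes. Differences between tables used an interaction term, and isoform shares an exact permutation test (scipy 1.17.1, Python 3.11.15). The members and lists were chosen with earlier results of these data known. By rule each member is named at least once, and values in every sample are given for the 3 of smallest p per table, the largest change per complex, the isoform genes and the main catalytic subunits.

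Low values were whole multiples of a step, so that whole reads were recovered in 96 of 99 libraries (100% of values within 0.01 of a read). On those reads edgeR 4.0.16 and DESeq2 1.42.0 were run as alternatives, with their calls given beside those of limma. Other alternatives were scaling (TMM), moderation, filter, pseudocount, transcript sums, a replicate block, single sequencing libraries, and leaving out replicates. Replicate numbers did not pair samples within a table (correlation of deviations from -0.575 to 0.582), but same-numbered long-diet tissue and adipocyte samples deviated together in all 5 pairs (0.162 to 0.699). Pairs of other numbers there ranged from -0.575 to 0.247, so the ranges overlap. The 2 adipocyte knockouts deviate from their mean as mirror images, so their pairs are not independent. Fits were checked on simulated data with 200 genes changed 2-fold or 4-fold. Of 2-fold changes limma called 2% in chow fat, 21% in long-diet fat, 40% in adipocytes, 80% in stimulated and 90% in short-diet fat. In chow fat it called 27% of 4-fold changes, so that a lack of calls says little there. False calls by DESeq2 were 98 in chow, 62 in short-diet and 121 in long-diet fat, against 5, 10 and 12 by limma. In adipocytes they were 70 against 20, and in stimulated fat 27 against 10.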

Additional observations from a re-analysis of the deposited data

Results flagged for a closer look

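In short-diet and stimulated fat 94 groups of 4 samples were checked. They held median levels of the members and complexes, isoform shares, genes named there for p or size, main catalytic subunits, Cox7a1 and Cox8b. In 2 groups 1 sample stood apart from the other 3 by more than Dixon's critical value, where chance gives about 1 in 20. Among stimulated wild types the share of Cox6a2 in subunit 6a had a gap of 0.918 of its range, with wild type 2 highest at 0.0646% against 0.0098 to 0.0143%. Among stimulated knockouts Atp5g3 had a gap of 0.876, with knockout 1 at 10918 against 6561 to 7099.6.

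Of 50 genes looked at (the members, Cox7a1, Cox8b, Cycs and Atpif1), 10 had every knockout on one side of every wild type in one table and on the opposite side in another table, where the difference between the tables was not tested. All but Cox6b2 were higher in the chow knockouts and lower in the adipocyte knockouts. Their differences of the log2 fold change were -0.93 for Atp5f1, -0.52 for Atp5g2, -1.07 for Atp5mpl, -1.11 for Cox5a, -0.96 for Cox6b1, -0.81 for Cox7a2, -1.25 for Cycs, -0.65 for Sdhc and -1.12 for Uqcrb. Cox6b2 was higher in the adipocyte knockouts and lower in the stimulated knockouts, with a difference of -1.98. Over all genes, 12.4% lay wholly higher in the chow knockouts and 27.3% wholly lower in the adipocyte knockouts. In adipocytes 20.8% lay wholly higher, and in stimulated fat 2.21% wholly lower. The share of all genes on opposite sides in both tables was not counted. These genes were picked by that separation, so their differences are a description only.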

How the results depend on the processing

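With a replicate left out the members' median ranged from 0.31 to 0.65 in chow, -0.24 to 0.04 in short-diet, 0.09 to 0.43 in long-diet and -0.15 to 0.08 in stimulated fat, so that its sign turned in short-diet fat (wild types 3 and 4) and in stimulated fat (wild type 3 and knockout 3). DESeq2 on recovered reads called 3 members in chow fat, 3 in short-diet fat and 1 in adipocytes. In adipocytes no filter gave 1 member, where 1.64% of 23256 genes passed. The replicate block gave 2 (Cox4i2 and Cox6a2), where it called 1394 of 14105 genes, though replicate numbers did not pair samples within a table. The block of genotype and number gave 1 (of 230 genes) in the difference between adipocytes and long-diet fat. The adipocyte median ranged from -0.275 to -0.047 with a replicate left out. The cause was not tested. No paired fit changed any other call on members.

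Directions turned for a few named genes. Cox8b in chow fat was 0.63 without wild type 2 and knockouts 1 and 2, where 1 knockout is left and assumed to vary like the wild types, and Cycs in stimulated fat was -0.0341 by edgeR and -0.0265 by DESeq2. With a replicate left out Cycs ranged from -0.0252 to 0.23 in short-diet, -0.21 to 0.30 in long-diet and -0.17 to 0.29 in stimulated fat. In long-diet fat Atpif1 ranged from -0.0184 to 0.37, Cox7b2 from -2.16 to 0.13 and Cox8b from -0.31 to 0.10. The call on Cox7a1 in short-diet fat was lost with no trend, with no filter and with the second library number alone, at -1.59, -1.59 and -1.55.

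Over all genes, TMM scaling lowered the chow median from 0.11 to -0.00, with the members' median at 0.34, and moved the short-diet split of calls from 141 higher and 343 lower to 217 and 310 and the members' median there to -0.00. For stimulated minus short-diet fat the split went from 41 and 5 to 27 and 12. DESeq2 called 875, 1530, 526, 1707 and 260 genes in the chow, short-diet, long-diet, adipocyte and stimulated tables, where limma called 0, 484, 0, 90 and 4. Without chow knockout 3 limma called 637 chow genes, and 730 and 181 in the differences of short-diet and long-diet from chow fat. These fits keep only chow knockouts 1 and 2, which are far more alike than other chow pairs (chi-square per degree of freedom 6.795). The 2 may not count as independent samples, so these counts cannot be read as a gain in true calls. Without short-diet wild type 1 it called 1160, and over the other replicates left out the lowest was 126. The replicate block gave 268 in short-diet fat and 1394 in adipocytes. Long-diet calls were 20 without knockout 1 and 1 without knockout 2. Adipocyte calls were 143 with TMM, 0 with no trend, 381 with no filter, 172 by edgeR and 3 to 728 with a replicate left out. Stimulated calls ranged from 0 to 9 over these settings other than DESeq2. Long-diet minus short-diet calls were 22 with no trend and 0 to 51 with a replicate left out, and adipocytes minus long-diet fat 33 to 656. With 2 to 4 samples a group, differences of a member could go uncalled. In simulated data limma called 2% of 2-fold changes in chow fat and 90% in short-diet fat.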
